A study of Mus musculus with 16 samples.

Results

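Tetraspanins and the glycoprotein CD24 were followed here in pancreatic islets of mice bred to lose the functional copy of Insm1 in adult beta cells on tamoxifen. Insm1 codes for a transcription factor with zinc fingers that endocrine cells use. The genes considered were Cd81, Cd9, Cd63, Cd82, Cd151, Tspan7, Tspan8, Tspan3 and Cd24a, 9 in all. The platform annotation used here gives 7 of them a probe set of their own, among 18193 genes with such a probe set, and the 7 have 19 probe sets together. Cd63 and Tspan7 are not analysed here. Each gene is read from the probe set with the highest mean over all 16 arrays, and the other probe sets are given beside it. The genes were selected on the mutant minus control differences of these arrays. Those differences are therefore given as a description of the arrays, without a test, also where it is said how many passed the threshold that served for all genes.

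The 8 mutant preparations came from RIPcreER; Insm1flox/lacZ mice and the 8 control preparations from RIPcreER; Insm1flox/+ mice, with 1 array each. RIPcreER is a recombinase that the rat insulin promoter drives in beta cells and that tamoxifen switches on. Both groups carried it, both carried a floxed allele, and both were given a 25 mg tamoxifen pellet (release over 21 days) when 4 to 5 weeks old. The control islets thus keep only the wild-type allele wherever recombination took place, and the lacZ allele of the mutants is present in every cell of the animal, not in beta cells alone. Islets were collected at an age of 8 to 12 weeks. The background of all animals combined the strains CBA/J, 129/ola and C57BL/6, and the series text calls the controls litter-matched. Values are the deposited log2 signals, on which a difference of 1 is a doubling. A difference is always the mutant mean less the control mean, from 8 arrays each (n = 8). "Called" means an adjusted p under 0.05 (limma, Benjamini-Hochberg over 18193 genes).

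Tetraspanins are small proteins that cross the membrane repeatedly and carry a large and a small extracellular loop. They gather integrins, immunoglobulin-family proteins, proteases and signalling lipids into patches of membrane, and several of them are abundant on extracellular vesicles and late endosomes. CD24, encoded by Cd24a in the mouse, is a short, heavily glycosylated peptide held in the outer leaflet by a lipid anchor and is seen on progenitor and immune cells. In islet work CD81 is used as a surface marker of immature or stressed beta cells, and CD9 has been used to divide human beta cells into subtypes.

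The hormone genes that define islets were read near the top of the scale: Ins2 at 15.36 ± 0.01 (SD, n = 8) in controls, Gcg at 15.00 ± 0.11 and Sst at 14.17 ± 0.16, against array medians of 6.29 to 6.35 and a highest value of 15.39. The mean of 8 beta cell markers was 12.56 ± 0.10 in controls (12.39 to 12.67) and 11.99 ± 0.13 in mutants (11.78 to 12.12), without overlap. Of the 8, 6 were called, all lower: Ucn3, Slc2a2, Glp1r, Nkx6-1, Pdx1 and G6pc2. Ins2 and Iapp differed by 0.01 each and were not called. Both read close to the highest value, where a difference can be understated. For 4 alpha cell markers the means were 11.25 ± 0.16 (11.01 to 11.44) and 11.62 ± 0.18 (11.36 to 11.88), higher in 8 of 8 pairs, with 2 called higher. Insm1 read 11.26 ± 0.23 in controls and 11.02 ± 0.22 in mutants and was not called (adjusted p = 0.182, limma). Its difference of −0.25 ± 0.11 turned to 0.04 ± 0.08 without the arrays numbered 1 to 3. Where its probes lie relative to the deleted part is not given in the sources used here. Whole islets hold several cell types, so more cells of a type and more RNA per cell cannot be told apart in these signals. Markers of non-endocrine cells also differed in mean, although most of them were not called singly. The mean of 10 acinar markers was 12.55 ± 0.78 in controls (11.66 to 13.68) and 11.12 ± 1.53 in mutants (8.66 to 13.21), lower for the mutant in each of 8 same-numbered pairs, and 1 of the 10 was called, lower (all 10 with the replicate number as a block). The mean of 7 duct markers was 7.82 ± 0.33 (7.42 to 8.30) against 7.43 ± 0.32 (6.97 to 8.01), lower in 8 of 8 pairs, with 1 of 7 called lower. For 12 blood cell markers the means were 7.54 ± 0.27 (7.24 to 8.09) and 7.86 ± 0.57 (7.36 to 8.71), higher in 5 of 8 pairs, with 1 called higher, and mutant arrays 1, 3 and 2 were the 3 highest of the mutants. For 11 stromal and endothelial markers they were 8.82 ± 0.11 (8.69 to 9.05) and 8.99 ± 0.24 (8.50 to 9.21), with 2 called higher and 1 lower. Fits with the acinar, duct or immune mean as a covariate are given below for part of the genes. Where none is given, the value may still have moved.

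The promoters of the members with the widest separation between groups are shown because partners of Insm1 bind known short motifs: the helix-loop-helix factor Neurod1 binds E-boxes, here written CAGNTG, and the forkhead factor Foxa2 binds TGTTTAC. Each line is the 250 bases before a RefSeq transcript start, 5′ to 3′ on the gene's strand in GRCm38.p6, with any match to either motif on either strand in capitals. Cd81 is at chr7:143052500-143052749 (+ strand) and Tspan8 at chr10:115817034-115817283 (+ strand). The Tspan8 stretch lies inside the annotated gene, which begins at 115816817, so it precedes a transcript start within the gene. For Cd24a only the name is given.
Cd81: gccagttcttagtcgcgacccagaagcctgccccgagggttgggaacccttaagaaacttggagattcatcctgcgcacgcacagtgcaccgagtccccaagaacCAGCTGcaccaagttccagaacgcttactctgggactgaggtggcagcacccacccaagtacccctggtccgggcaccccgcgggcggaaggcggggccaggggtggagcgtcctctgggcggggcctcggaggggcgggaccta
Tspan8: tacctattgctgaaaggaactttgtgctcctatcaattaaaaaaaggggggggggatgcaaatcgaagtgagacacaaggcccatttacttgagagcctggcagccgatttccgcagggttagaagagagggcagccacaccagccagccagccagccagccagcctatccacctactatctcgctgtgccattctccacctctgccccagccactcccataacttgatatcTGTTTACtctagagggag

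The Cd81 stretch holds 1 E-box, which begins 145 bases before the start, and no TGTTTAC. The Tspan8 stretch holds 1 TGTTTAC, which begins 18 bases before the start, and no E-box, and the 2 motifs do not overlap in either. Of all 32851 RefSeq promoters of this length, 44.82% hold CAGNTG and 3.17% hold TGTTTAC. Among the 12 transcript starts listed for 8 of the 9 genes, 6 had CAGNTG and 1 had TGTTTAC. The Cd81 stretch is rich in G and C (65.6%, against a median of 52.4% over all promoters), and that of Tspan8 lies at the median (52.4%). A match is a stretch of letters and not a measured binding site.

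Across the 7 measured genes, 6 differences lay above 0 and 1 below, with a median of 0.44 against −0.01 over all genes. The 5 called genes, all higher in the mutant, were Cd81, Cd24a, Tspan8, Cd151 and Tspan3, and Cd9 and Cd82 were not called. Over all genes 8.76% were called, 4.10% as higher and 4.66% as lower. Since the genes were picked with this contrast known, nothing is read from their share. Cd81, Cd24a and Tspan8 stood apart from the other 4, each with a change of 1.80-fold to 1.86-fold and with no mutant array as low as any control array. Such a complete separation with the mutant higher was seen for 1.19% of all genes, and a separation in either direction for 2.29%.

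**Figure D1:**
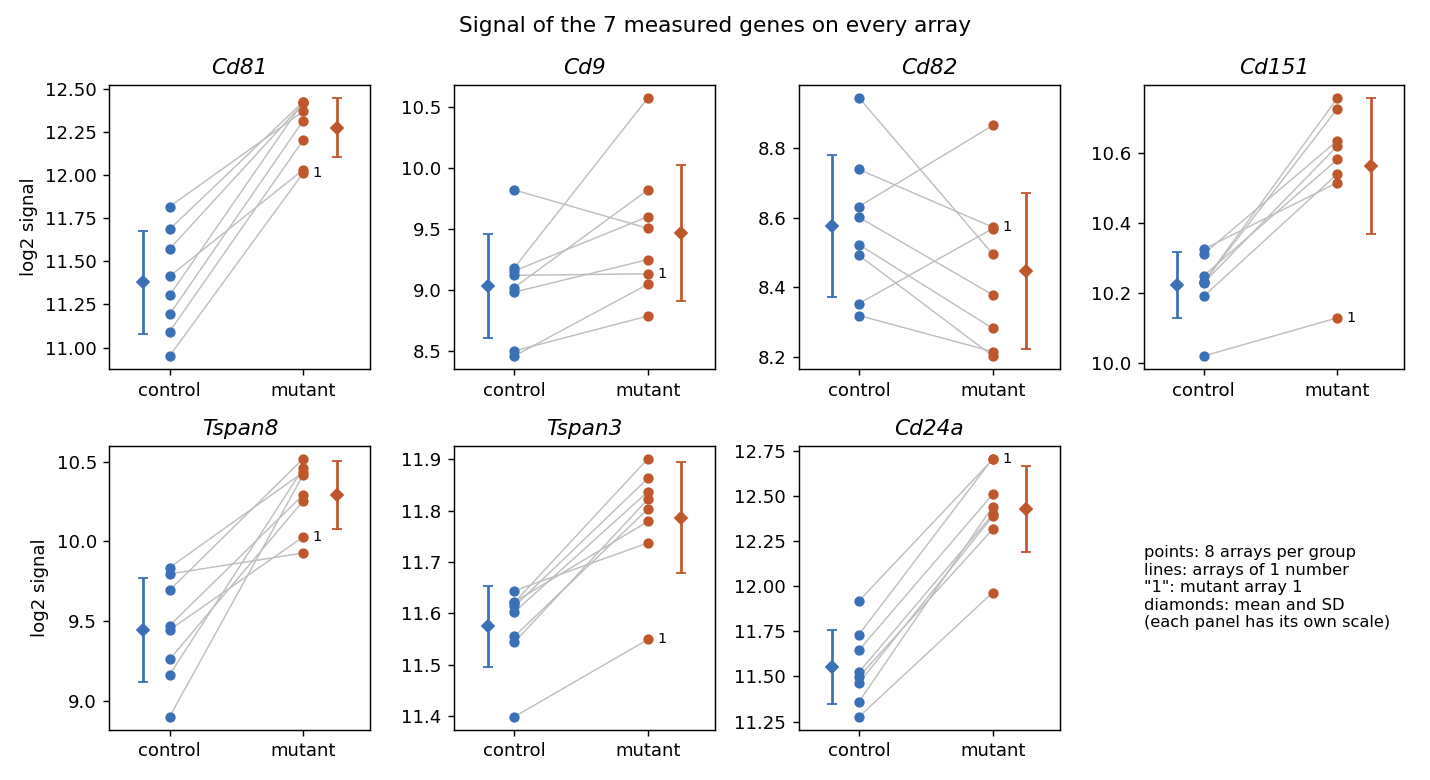
Log2 signal (vertical axis, a separate scale per panel) of the 7 genes on 8 control and 8 mutant arrays; grey lines join arrays of the same replicate number, and diamonds with bars are the mean and SD of each group. For Cd81, Tspan8 and Cd24a the lowest mutant array (12.01, 9.93 and 11.97) lies above the highest control array (11.82, 9.84 and 11.92), whereas the groups of the other 4 genes overlap.

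Cd81 encodes a tetraspanin that partners immunoglobulin-family proteins and integrins. Control arrays ran from 10.95 to 11.82 with a median of 11.36, and mutant arrays from 12.01 to 12.43 with a median of 12.34. Every mutant array was above every control array, with a gap of 0.20 between the groups. The mean rose from 11.38 ± 0.30 (SD) to 12.27 ± 0.17, a difference of 0.90 ± 0.11 (SE), or 1.86-fold. Mutant array minus same-numbered control array ranged from 0.55 (number 5) to 1.12 (numbers 3 and 8). The lowest values of both groups came from array 1, and the mutant arrays were the closer together. Cd81 has a single probe set. With a marker mean as covariate the difference was 0.85 ± 0.14 (acinar), 0.81 ± 0.13 (duct) and 0.98 ± 0.11 (immune), and 0.87 without the arrays numbered 1 to 3, where the mutant immune signal was high.

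Cd24a, the only one of the 7 that is no tetraspanin, changed by as much. Control arrays ran from 11.28 to 11.92 (median 11.51) and mutant arrays from 11.97 to 12.71 (median 12.42). The groups did not overlap, although the gap between them was only 0.05, from control array 1 to mutant array 3. The mean went from 11.55 ± 0.21 (SD) to 12.43 ± 0.24, a difference of 0.88 ± 0.10 (SE), or 1.84-fold. Its pair differences were the most even of the 7 genes in relation to their size, from 0.69 to 1.08, and the SE fell to 0.04 with the replicate number as a block. In each of the 8 pairs all 3 probe sets gave the higher value for the mutant, with mean differences of 0.88, 0.99 and 0.77. On the last of these the groups overlapped, with control arrays up to 10.82 and mutant arrays from 10.65. Covariates left it at 0.98 (acinar), 0.98 (duct) and 0.88 (immune). Cd24a has been described as a transcript of delta and PP cells, whose markers read 10.65 ± 0.14 (10.49 to 10.92) in controls and 10.88 ± 0.13 (10.74 to 11.08) in mutants over 7 genes, with 1 called higher and 6 not called (3 higher with the replicate block). Within groups, Pearson's r of Cd24a with this marker mean was 0.01 over the 8 control arrays and −0.10 over the 8 mutant arrays (exact permutation p = 0.977 and 0.813, rho = −0.02 and −0.26 with p = 0.977 and 0.536). With 8 arrays and a marker mean that varied this little, an r near 0 does not show the absence of a relation. The part of these cells in the difference was not tested.

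Tspan8 encodes a tetraspanin of epithelia that joins integrins and the adhesion protein EpCAM. Control arrays ran from 8.90 to 9.84 (median 9.46) and mutant arrays from 9.93 to 10.52 (median 10.36). The groups were separated by 0.09. The mean went from 9.45 ± 0.33 (SD) to 10.29 ± 0.21, a difference of 0.85 ± 0.13 (SE), or 1.80-fold. Its pair differences were uneven, from 0.13 (number 8) to 1.52 (number 5), and the block did not narrow the SE (0.13 with and without it). The other 4 probe sets were also higher in the mutant, by 0.27 to 0.75, but 2 of them had control means below the array medians (5.44 and 5.34), and the groups of all 4 overlapped. With the mean of the 5 probe sets the difference was 0.57. Covariates left it at 0.76 (acinar), 0.73 (duct) and 0.83 (immune).

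Cd151, a tetraspanin that binds laminin-receptor integrins directly, differed less. Its control arrays ran from 10.02 to 10.32 (median 10.23) and its mutant arrays from 10.13 to 10.76 (median 10.60). Mutant array 1 lay within the control range, and the other 7 lay above it. The mean went from 10.22 ± 0.09 (SD) to 10.56 ± 0.19, a difference of 0.34 ± 0.08 (SE), or 1.27-fold, with the mutant higher in 8 of 8 pairs. Over all genes 5.79% were higher in 8 of 8 pairs. Its 6 probe sets did not move alike: 4 of them gave 0.23 to 0.34, 1 gave 0.06, and the dimmest gave −0.19, so their mean differed by 0.16 and the gene was not called on that mean. It was not called either once the acinar or the duct mean entered the fit, where the difference was 0.26 ± 0.08 and 0.23 ± 0.08.

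Tspan3, a broadly expressed tetraspanin, showed the smallest of the called differences. Control arrays ran from 11.40 to 11.64 (median 11.61) and mutant arrays from 11.55 to 11.90 (median 11.81). Only mutant array 1 reached into the control range. The mean went from 11.57 ± 0.08 (SD) to 11.79 ± 0.11, a difference of 0.21 ± 0.05 (SE), or 1.16-fold, with the mutant higher in 8 of 8 pairs. It was no longer called with the acinar mean (0.15 ± 0.06) or the duct mean (0.13 ± 0.05) as a covariate. Both marker means fell below the control in each of the 8 pairs. The acinar and duct means largely shared their order of arrays, so these fits are not separate checks. Control array 8 was the lowest control on both, and mutant array 6 the lowest mutant. Single duct markers differed by −1.29 (Tff2) to 0.15 (Anxa2), with Krt19 at −0.95 and Krt7 at −0.01. The part of the marker means in the differences of Cd151 and Tspan3 was not tested beyond these fits.

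Cd9, a tetraspanin of many cell surfaces and of vesicles, had the widest spread. Control arrays ran from 8.46 to 9.82 (median 9.07) and mutant arrays from 8.78 to 10.58 (median 9.38). Both groups covered much of the same range, and mutant array 5 stood highest. The mean went from 9.03 ± 0.43 (SD) to 9.46 ± 0.56, a difference of 0.44 ± 0.23 (SE), which was not called. The mutant was higher in 7 of 8 pairs, by up to 1.40, with a difference of −0.32 in number 7. The difference ranged from 0.28 to 0.55 when single arrays were left out. With a marker mean as covariate it was 0.56 ± 0.27 (acinar), 0.52 ± 0.27 (duct) and 0.49 ± 0.24 (immune), again without a call.

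Cd82, known as a suppressor of metastasis, was the only 1 of the 7 on the other side of 0. Control arrays ran from 8.32 to 8.94 (median 8.56) and mutant arrays from 8.20 to 8.86 (median 8.44). The ranges nearly coincided, and the mutant was lower in 6 of 8 pairs. The mean went from 8.58 ± 0.20 (SD) to 8.45 ± 0.22, a difference of −0.13 ± 0.10 (SE), which was not called. Its other probe set differed by 0.01 ± 0.06. Leaving out single arrays moved the first value between −0.19 and −0.08, the latter without control array 6. The immune covariate moved it to −0.23 and the duct covariate to −0.08. Neither value shows that Cd82 is unaffected.

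**Figure D2:**
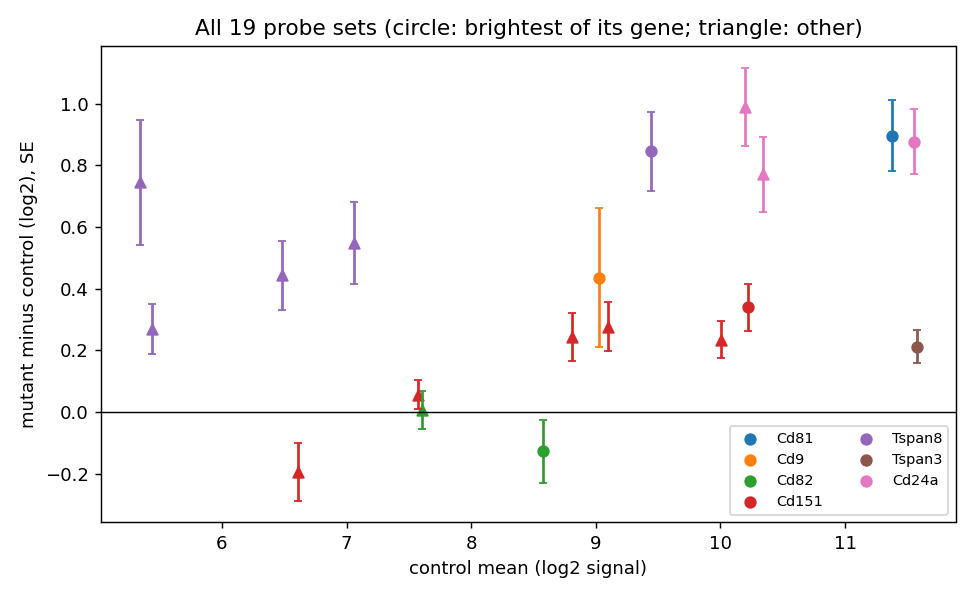
Mutant minus control difference with its SE (vertical axis, log2) of all 19 probe sets against their control mean (horizontal axis, log2 signal), coloured by gene; circles are the brightest probe set of a gene and triangles the others. The 3 probe sets of Cd24a agree within 0.77 to 0.99, while the 6 of Cd151 run from −0.19 to 0.34.

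With the replicate number as a block in the fit, 17.6% of all genes were called, 7.88% as higher and 9.71% as lower, and the same 5 of the 7 genes were called. The SE of Cd81 fell from 0.11 to 0.07, that of Cd9 from 0.23 to 0.15, and that of Cd24a from 0.10 to 0.04. Among arrays of a number, Cd24a went up and down together: the control array and the mutant array of the same number correlated with r = 0.86 over 8 pairs (exact permutation p = 0.00662, adjusted p = 0.0464 over the 7 genes) and rho = 0.81 (exact permutation p = 0.0218, adjusted p = 0.152). Without the 2 control arrays farthest from the median r was 0.75 (exact permutation p = 0.0875), so the relation did not pass on the 6 remaining pairs. The r of the other 6 genes lay between −0.26 for Tspan8 and 0.77 for Tspan3, and none passed the test (lowest adjusted p = 0.201, exact permutation; 0 of 6 at an unadjusted p under 0.05). For Cd151 and Tspan3 (r = 0.74 and 0.77, exact permutation p = 0.0887 and 0.0765, rho = 0.24 and 0.12) r was 0.14 and −0.17 without the 2 control arrays farthest from the median, of which array 1 was the lower.

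**Figure D3:**
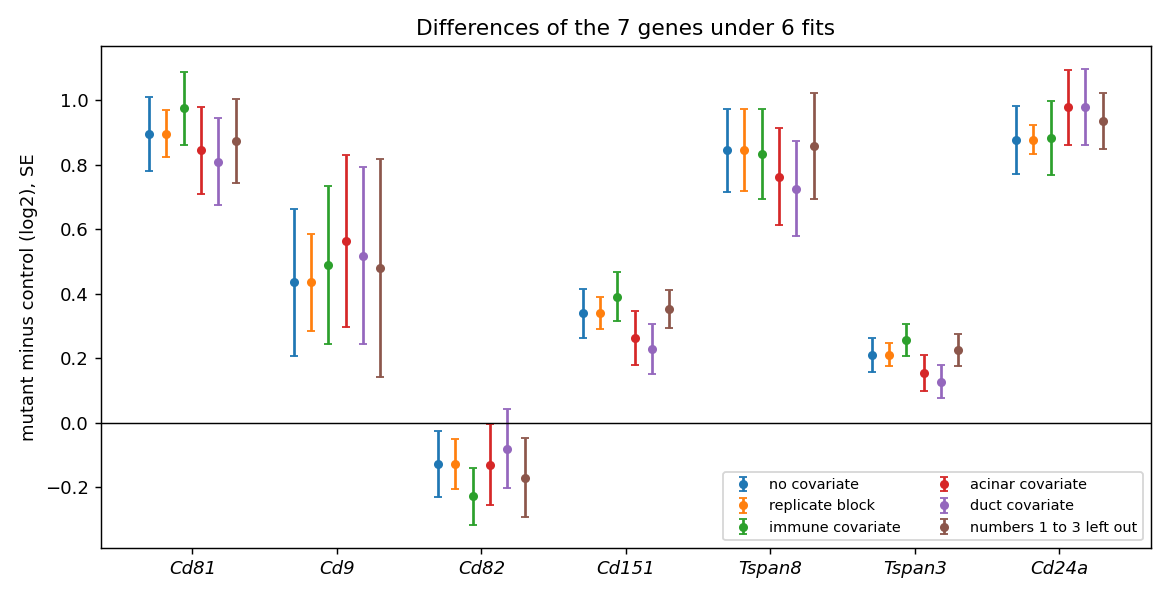
Mutant minus control difference (vertical axis, log2) with its SE for each of the 7 genes under 6 fits, which add the replicate block or a marker mean as a covariate or leave out the arrays numbered 1 to 3. Cd81, Tspan8 and Cd24a stay between 0.73 and 0.98, and Cd151 and Tspan3 are lowest with the duct mean (0.23 and 0.13).

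Whether the 7 genes move as a unit inside a group cannot be settled with 8 arrays each, where a missed threshold does not show absence. Of 42 relations between pairs of them, 21 in each group of 8 arrays, 0 passed after adjustment (exact permutation of Pearson's r, lowest adjusted p = 0.185, 5 of 42 at an unadjusted p under 0.05). The sign was positive in 10 of 21 control relations and 12 of 21 mutant relations. Cd81 and Cd24a, the genes with the largest differences, had r = −0.16 in controls and −0.41 in mutants (exact permutation p = 0.701 and 0.311, adjusted p = 0.842 and 0.595, rho = −0.07 and −0.17). Without the 2 arrays farthest from the median these were 0.65 and 0.03, so that not even the sign in controls was stable. The strongest relation was between Cd81 and Cd82 in controls, where r was −0.86 (exact permutation p = 0.0063, adjusted p = 0.185), rho was −0.93 (exact permutation p = 0.00223, adjusted p = 0.0938), and r was −0.82 without the 2 arrays farthest from the median. In mutants the exact permutation test gave Cd81 with Cd151 an r of 0.76 (p = 0.00883, adjusted p = 0.185) and a rho of 0.67 (p = 0.0831), and r was 0.55 without such arrays. Cd151 with Tspan3 had a high r in controls (0.85) and in mutants (0.78), with exact permutation p = 0.0377 and 0.0736 and adjusted p = 0.316 and 0.416. The rho was only 0.26 and 0.19, and r was 0.36 and −0.14 without such arrays.

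Of 70 relations between a gene and the mean of acinar, duct, immune, stromal and endothelial or delta and PP markers, 0 passed after adjustment (exact permutation, lowest adjusted p = 0.188, 4 of 70 at an unadjusted p under 0.05). Cd151 ran opposite to the duct mean (r = −0.83) and to the acinar mean (r = −0.78) in controls, with exact permutation p = 0.00268 and 0.0108 and adjusted p = 0.188 and 0.297. The rho was −0.86 and −0.83, and r was −0.74 and −0.84 without the 2 arrays farthest from the median. Cd81 ran opposite to the immune mean in controls (r = −0.77, exact permutation p = 0.0212, adjusted p = 0.372; rho = −0.69). That r was −0.41 without the 2 arrays farthest from the median. Tspan3 ran opposite to the duct mean in mutants (r = −0.83, exact permutation p = 0.0127, adjusted p = 0.297; rho = −0.76), with r = −0.67 without such arrays.

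Likeness was measured as Pearson's r between deviations from the group means over the 16 arrays, among 9095 genes above the median of all genes. It is a description, and same-numbered arrays share part of their deviations. Closest to Cd81 were Sec24c, Pigf and Zfp236 (r = 0.87, 0.86 and 0.86), and closest to Cd24a were Abi1, Tut4 and Gcgr (r = 0.77, 0.76 and 0.76). For Tspan8 they were Fxyd3, Cyth2 and Dis3l (r = 0.85, 0.80 and 0.79), for Cd151 Sccpdh, Lsr and Ptpn9 (0.91, 0.90 and 0.89), and for Tspan3 Slc30a9, Prkra and Nudcd3 (0.95, 0.92 and 0.91). For Cd9 they were Map1s, Sin3a and Tac1 (r = 0.87, 0.86 and 0.85) and for Cd82 Cdkn2d, Rnpepl1 and Hs1bp3 (0.90, 0.84 and 0.84). No member was among the 3 closest genes of another. Of these 21 genes only Hs1bp3 was called (−0.21 ± 0.06, adjusted p = 0.0464, limma).

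The rest of the tetraspanin family is given beside these values. Because the members were picked on the differences of these arrays, the family genes left over are no neutral background for them. Of 23 other family genes, 2 rose, 1 fell and 20 were not called, with a median difference of 0.04 (5 higher and 2 lower with the replicate block). Over all genes 8.76% were called, and 17.6% with the block. Tspan6, a tetraspanin linked to endosomal sorting, rose from a control median of 6.97 (SD 0.19) to a mutant median of 7.80 (SD 0.27), on the means by 0.89 ± 0.11 (SE) or 1.85-fold (adjusted p = 5.65e-05, limma). Its control arrays ran from 6.76 to 7.29 and its mutant arrays from 7.63 to 8.40, so that the groups did not overlap, and both of its probe sets were called higher. The difference was close in size to that of Cd81 (0.90), and the mutant was higher in 8 of 8 pairs. Tspan2, a tetraspanin best known from myelinating glia, fell from 8.80 ± 0.21 to 8.23 ± 0.33, a difference of −0.57 ± 0.13 (adjusted p = 0.00878, limma), lower in 8 of 8 pairs and in all 3 of its probe sets.

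Tspan4, known from migrasomes, rose by 0.21 ± 0.06 (adjusted p = 0.0242, limma), from 7.22 ± 0.09 to 7.42 ± 0.09 and in 8 of 8 pairs. Its call was lost with the acinar, duct or immune mean as a covariate, without the arrays numbered 1 to 3 (adjusted p = 0.325), and without control array 7 or mutant array 2 or 4 (adjusted p up to 0.0508). With the block, Tspan5, Tspan12, Tspan15 and Tspan17 were called as well (adjusted p = 0.0241, 0.0221, 0.00751 and 0.0216, limma), Tspan5 as lower by −0.20 and the others as higher by 0.27, 0.30 and 0.32. Tspan5, Tspan15 and Tspan17 belong with Tspan10, Tspan14 and Tspan33 to the subgroup that escorts the protease ADAM10 to the cell surface. Adam10 itself differed by −0.02 ± 0.06 (adjusted p = 0.891, limma). Tspan13, the brightest other family probe set with a control mean of 12.54, differed by 0.00 ± 0.06 (adjusted p = 0.993, limma). Cd53 and Cd37, tetraspanins of white blood cells, differed by 0.94 ± 0.66 and 0.20 ± 0.16 without a call (adjusted p = 0.469 and 0.547, limma).

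**Figure D4:**
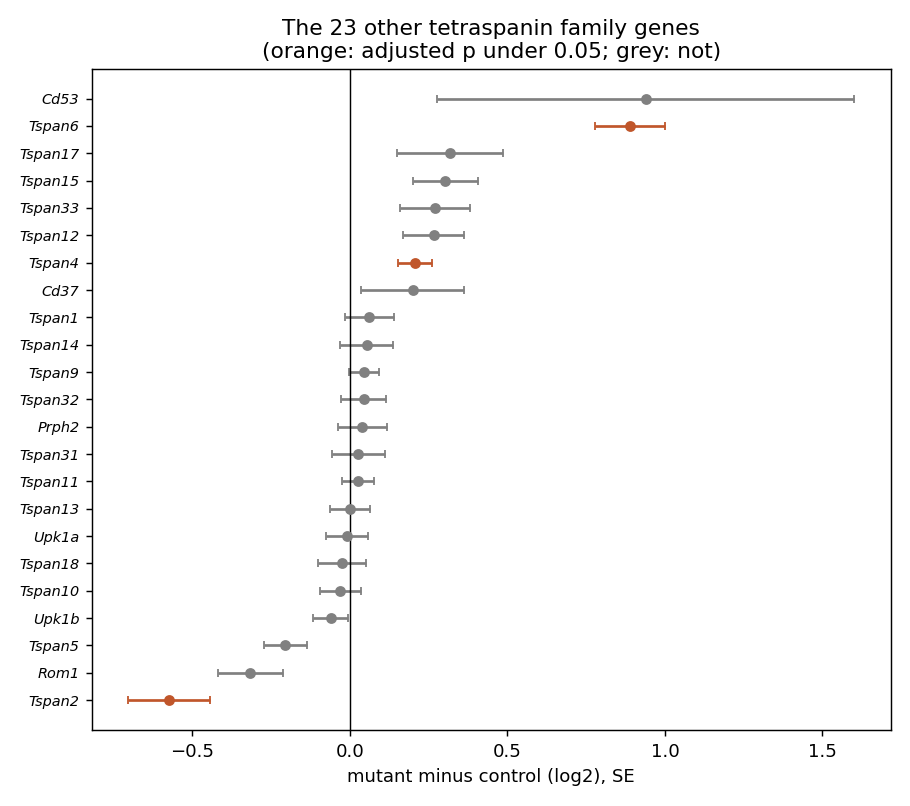
Mutant minus control difference (horizontal axis, log2) with its SE for the 23 other tetraspanin family genes, ordered by size; orange marks an adjusted p under 0.05. Tspan6 (0.89) and Tspan2 (−0.57) stand far from 0 with short error bars, and Cd53 (0.94) has the widest SE (0.66).

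Partners of tetraspanins or CD24 at the cell surface were called about as often as genes at large, of which 8.76% were. Of 28 measured, 2 rose, 0 fell and 26 were not called (limma; 6 of 28 at an unadjusted p under 0.05), and the median difference was 0.02. With the replicate block 4 were higher and 2 lower, where 17.6% of all genes were called. Ifitm1, an interferon-induced membrane protein that associates with CD81, rose 2.77-fold, from 8.13 ± 0.34 (SD) to 9.59 ± 0.61 (adjusted p = 0.000456, limma). Its control arrays ran from 7.58 to 8.65 and its mutant arrays from 8.47 to 10.26, and the mutant was higher in 8 of 8 pairs. Its relatives Ifitm2 and Ifitm3 differed by 0.17 ± 0.09 and −0.00 ± 0.15 (adjusted p = 0.312 and 0.999, limma). Itgb1, the beta chain of the laminin receptors that CD151 binds, rose by 0.33 ± 0.06 (adjusted p = 0.00163, limma), from 8.78 ± 0.09 to 9.11 ± 0.12, and 3 of its 6 probe sets were called, all higher. The 6 ran from −0.04 to 0.39, and on their mean the difference was 0.17 (adjusted p = 0.0151, limma). Its alpha partners Itga3 and Itga6 differed by −0.02 ± 0.06 and −0.18 ± 0.09 (adjusted p = 0.916 and 0.259, limma).

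Ptgfrn, which encodes an immunoglobulin-family protein bound by CD9 and CD81, differed by 0.44 ± 0.13 and lay just outside the threshold (adjusted p = 0.0505, and 0.0245 with the replicate block, limma). Its control mean was 6.41 ± 0.31, near the array medians, and the mutant was higher in 8 of 8 pairs. Igsf8, the gene of the other such partner, differed by −0.09 ± 0.08 (adjusted p = 0.564, limma). Epcam, a partner of TSPAN8, read 11.63 ± 0.08 and 11.76 ± 0.17 (adjusted p = 0.266, limma). Also called with the block were Cd36 as higher (0.46 ± 0.11, adjusted p = 0.0147) and Hbegf and Pi4k2a as lower (−0.37 ± 0.09 and −0.20 ± 0.04, adjusted p = 0.0124 and 0.00853, limma). Siglecg and Selp, which encode receptors for CD24 on other cells, differed by 0.12 ± 0.23 and −0.03 ± 0.15 (adjusted p = 0.821 and 0.938, limma).

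Genes of extracellular vesicles, ESCRT sorting and late endosomes changed by little where they changed. Of 22 measured, 4 fell, 1 rose and 17 were not called, with a median difference of −0.08, and 7 were lower and 1 higher with the block. Over all genes 4.66% were called lower and 4.10% higher, and 9.71% and 7.88% with the block. The split of the calls depended on the setting: 2 rose and 2 fell with quantile normalization, 0 and 5 with median centring, and 1 and 1 both on the mean of probe sets and with the immune covariate. Ap3b1, a subunit of the adaptor that sorts cargo to lysosomes and granules, fell by 0.15 on the log2 scale (adjusted p = 0.0192, limma). Rab7, a GTPase of late endosomes, and Rab27a, a GTPase of vesicle and granule docking, differed by −0.20 ± 0.05 and −0.36 ± 0.10 (adjusted p = 0.0209 and 0.0343, limma). Lamp1, a lysosomal membrane protein, differed by −0.20 ± 0.06 (adjusted p = 0.0465, limma). These 4 were lower in 8 of 8 pairs, and the share of all genes lower in every pair is not given here. Sdcbp, which encodes syntenin, a scaffold that binds the tail of CD63, rose by 0.19 ± 0.05 (adjusted p = 0.0335, limma). Not all probe sets of these genes were called. For Ap3b1 it was 1 of 2 (−0.15 to −0.06) and for Rab7 1 of 2 (−0.20 to −0.07). For Rab27a it was 3 of 4 (−0.47 to −0.01) and for Sdcbp 1 of 3 (0.11 to 0.19).

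The vesicle calls were close to the threshold. Without the arrays numbered 1 to 3 only Sdcbp was still called. The acinar and the duct covariate ended the calls of Ap3b1 (adjusted p = 0.0706 and 0.0696, limma) and Sdcbp (0.131 and 0.105), and the immune covariate those of Rab7, Rab27a and Lamp1 (0.0581, 0.0884 and 0.0813). Quantile normalization ended the calls of Ap3b1 and Lamp1, median centring that of Sdcbp, and array weights that of Lamp1. On the mean of probe sets Ap3b1, Rab7 and Lamp1 were not called. Leaving out single arrays ended the call of Rab27a for control arrays 1, 4, 5 and 7 and mutant arrays 3 and 4 (adjusted p up to 0.0691). It ended that of Sdcbp for control arrays 1, 3, 4 and 7 and mutant arrays 4 to 8 (adjusted p up to 0.0667), and that of Lamp1 for control arrays 1 to 4, 6 and 8 and mutant arrays 1, 2, 4, 5, 7 and 8 (adjusted p up to 0.0924). The median of all genes moved by no more than 0.02 under any scaling tried.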

How the data were processed

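Total RNA of isolated islets (Trizol) was labelled from 150 ng with a 3′ IVT kit for Affymetrix mouse arrays, per the labels' protocols. What the authors deposited is a table of log2 signals by probe set. Its background correction, summary and normalisation are not given in the sources used here. Signals near background were not marked, and differences there can be understated. Of 45101 probe sets, 34945 named 1 gene, 932 several and 9160 none, and 64 were array controls. Symbols of 34741 were matched to RefSeq (GRCm38.p6) through gene identifiers. Groups come from the sample titles. Genotype was fitted alone with limma 3.58.1 in R 4.3.3 (eBayes with a mean-variance trend, two-sided), after a check of the steps on simulated data.

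The members, lists and main tests were chosen with earlier results of these data known. Named genes are the members, Insm1, up to 4 called genes of each list by p, the 3 genes most like each member and the markers; Lamp1, Ptgfrn, the genes called only with the block and other partners or relatives were named after their values were seen, as was the test of same-numbered arrays. Correlations use exact permutation of pairings, two-sided, with Benjamini-Hochberg adjustment within each family. Deviations from group means correlated in all 8 same-numbered pairs (0.237 to 0.735), so the numbers were taken as pairs; the labels do not say that same-numbered animals were littermates. Each array is 1 preparation, and whether a preparation pooled animals is not stated beyond 8 mice per group.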

Additional observations from a re-analysis of the deposited data

Results flagged for a closer look

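In 4 of 32 groups of 8 arrays looked at, 1 array stood far from the rest, and all 4 were the array numbered 1. Chance flags about 1 in 20 independent groups, but these groups are the same 16 arrays read for several genes. The 4 flags came from Cd151 and Tspan3 alone, so their number is not held against that rate. For Cd151 the lowest control array, number 1, read 10.02 against 10.19 for the next, a gap of 0.56 of the whole range, and the lowest mutant array, also number 1, read 10.13 against 10.52 (0.615 of the range). For Tspan3 control array 1 read 11.40 against 11.54 (0.591 of the range) and mutant array 1 read 11.55 against 11.74 (0.534 of the range). Control array 1 and mutant array 1 also had the highest immune marker means of their groups, 8.09 and 8.71; the part of this in the low values was not tested. Without mutant array 1 all 5 called members were still called.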

How the results depend on the processing

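Of 10 other settings, 8 also called 5 members; the mean of probe sets called 4 and the acinar covariate 3. Leaving out any single array gave 5. The median difference of the members ranged from 0.31 to 0.55 without single arrays. Added after the data were seen were the duct mean as a covariate (3 members called) and the replicate block with the acinar and immune means together (1, Cd24a). The latter fit called 9 genes of 18193, and the SE of every member was wider in it than in the main fit. In it Cd81 differed by 0.80 ± 0.26 (SE), Cd24a by 1.06 ± 0.13, Tspan8 by 0.72 ± 0.45 and Cd151 by 0.35 ± 0.18. Tspan3 differed by 0.18 ± 0.13, Cd9 by −0.03 ± 0.50 and Cd82 by −0.28 ± 0.23. A lost call in that fit does not show that a difference is absent. With the replicate block alone 3200 genes were called, with 7 other tetraspanins, 6 surface partners and 8 vesicle genes; the block changed no member's call. In the block with both means, these lists had 0, 0 and 0 calls (limma; 3, 2 and 0 at an unadjusted p under 0.05). With the duct mean 2480 genes were called, with 5 other tetraspanins and 8 surface partners, and with the acinar mean 4 surface partners. Without the arrays numbered 1 to 3, 828 genes and 1 vesicle gene were called. The vesicle count was 2 with the mean of probe sets and 2 with the immune mean. Without single arrays it ranged from 2 to 6, that of surface partners from 2 to 4, that of other tetraspanins from 2 to 4, and that of all genes from 1324 to 1645. Mean signals of the members' probe sets lay above the array medians except for 2 of Tspan8.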
